A study of Homo sapiens with 12 samples.

Results

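Serpins and kallikreins were examined in the RNA sequencing counts of TIGK cells. The members were the rows annotated as protein-coding whose symbol was SERPIN with a clade letter from A to I and a number, or KLK with a number. This rule used no measured value, although it was chosen with earlier results of these data known. It found 49 genes of 58735 rows, 34 serpins and 15 kallikreins. A count was present in at least 1 library for 38 of them, 26 serpins and 12 kallikreins.

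TIGK cells are gingival keratinocytes of human origin, made immortal by transfection of hTERT, the catalytic subunit of telomerase. All cells were kept in DMEM-SILAC Flex medium with 48 mM D-glucose, insulin, hydrocortisone hemisuccinate, and other growth factors. They received either no added L-arginine (control) or 500 μM L-arginine (Arg) for 24 or 48 h. The paper states that this base medium has no arginine of its own, so the control was medium made without it. Each of the 4 groups (control 24 h, Arg 24 h, control 48 h, and Arg 48 h) had 3 libraries, named replicates A, B, and C, 12 in all from this single line. The sources used here do not say whether the replicates were separate cultures, so the p-values measure the spread between these libraries, which may be technical.

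Serpins are proteins that trap serine proteases, and some cysteine proteases, by a change of shape that locks the protease to its inhibitor. Most members of clade B stay inside the cell, whereas those of clades A, C, D, E, F, and G are mainly secreted. Kallikrein-related peptidases are secreted serine proteases, and in stratified epithelium several of them, such as KLK5 and KLK7, cut the desmosomal proteins that hold keratinocytes together. Serpins therefore act as brakes on proteolysis at the cell surface and in the matrix, and SERPINE2 restrains thrombin and the plasminogen activators.

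The promoters of 4 members whose counts are described below are shown, 1 for each pattern: SERPINE2 and SERPINB8, with lower counts in Arg at 24 h, SERPINB13, which rose with time, and KLK5, the kallikrein with the highest level. Each runs from 250 bases before to 50 bases after a RefSeq start site of GRCh38.p14, and capitals mark matches on either strand to the AP-1 motif TGANTCA, the TATA box TATAAA, the GC box GGGCGG, or the E-box CACGTG.
SERPINE2 (chr2:224038591-224038890, minus strand): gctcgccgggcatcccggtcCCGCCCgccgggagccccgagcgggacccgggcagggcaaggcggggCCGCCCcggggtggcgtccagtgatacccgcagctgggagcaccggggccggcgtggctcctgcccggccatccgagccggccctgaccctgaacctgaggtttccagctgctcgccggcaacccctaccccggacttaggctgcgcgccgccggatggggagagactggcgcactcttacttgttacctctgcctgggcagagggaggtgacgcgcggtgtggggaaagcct
SERPINB8 (chr18:63969831-63970130, plus strand): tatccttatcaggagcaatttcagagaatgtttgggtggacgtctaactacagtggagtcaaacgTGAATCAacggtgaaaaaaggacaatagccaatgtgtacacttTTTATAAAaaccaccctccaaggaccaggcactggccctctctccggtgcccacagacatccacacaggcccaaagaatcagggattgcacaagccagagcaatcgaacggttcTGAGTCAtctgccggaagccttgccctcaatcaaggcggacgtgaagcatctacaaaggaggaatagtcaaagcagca
SERPINB13 (chr18:63587093-63587392, plus strand): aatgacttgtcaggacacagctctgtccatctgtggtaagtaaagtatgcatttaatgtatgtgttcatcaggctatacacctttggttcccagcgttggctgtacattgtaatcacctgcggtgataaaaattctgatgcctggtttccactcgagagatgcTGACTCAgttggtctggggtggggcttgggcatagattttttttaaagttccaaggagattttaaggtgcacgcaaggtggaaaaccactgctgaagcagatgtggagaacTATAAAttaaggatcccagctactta
KLK5 (chr19:50952989-50953288, minus strand): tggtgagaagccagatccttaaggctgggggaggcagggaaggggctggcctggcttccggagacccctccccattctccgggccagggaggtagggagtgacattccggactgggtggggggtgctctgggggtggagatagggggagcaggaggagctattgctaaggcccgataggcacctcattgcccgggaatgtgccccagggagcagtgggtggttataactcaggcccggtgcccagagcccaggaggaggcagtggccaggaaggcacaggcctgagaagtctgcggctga

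The SERPINE2 window held 2 GC boxes, both read as CCGCCC on the printed strand, and its start site lies 646 bases from that of the canonical transcript. This window lies wholly inside the deposited coordinates of the gene, which reach 224039319. It therefore holds no sequence before the outermost start of the gene. The SERPINB8 window held AP-1 matches at -185 and -28 and overlapping TATA-box matches at -142 and -140, counted from the start site. In the SERPINB13 window, an AP-1 match lay at -87 and a TATA-box match at 24. That window also lies wholly inside the deposited coordinates of its gene, which start at 63586989. It too holds no sequence before the outermost start, and the windows of SERPINB8 and KLK5 lie inside their genes in part. No match to the 4 motifs was present in the KLK5 window. RefSeq promoters were matched by symbol for 40 of the 49 members, 63 windows in all. The AP-1 motif was found in 9 of these 63 windows (14.3%), against 7.7% of all 35116 promoters of the same length. Its 8 genes were SERPINB2, SERPINB5, SERPINB7, SERPINB8, SERPINB12, SERPINB13, SERPINE3, and SERPINI2, and no kallikrein was among them. For the TATA box the shares were 22.2% of the member windows and 11.5% of all promoters, for the GC box 38.1% and 45.0%, and for the E-box 1.6% and 7.3%. The only member window with an E-box belonged to another start site of SERPINE2. These matches describe letters in the windows and do not show that a factor binds there.

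The libraries held between 16542243 and 19040964 counts (median 18178000), and the members made up between 0.102% and 0.118% of each. No pair of replicates repeated the same library, since the chi-square statistic of their counts per degree of freedom was between 3.66 and 23.9. All 14 keratinocyte markers exceeded 1 CPM (TMM-normalized counts per 1000000 counts of a library) on average in each group. Leukocyte markers summed to at most 0.630 CPM in any library. DCN (15.3 to 75.6 CPM) and COL1A1 (10.8 to 27.0 CPM) were the fibroblast markers with high counts, whereas COL1A2, COL3A1, and PDGFRA stayed below 0.270 CPM in every library. The control libraries with the letter B stood apart from their replicates, more so at 48 h. At 48 h, this statistic was 20.88 and 23.92 for control B against A and C, and 3.66 for A against C. At 24 h the same values were 12.34, 12.55, and 6.54. Arg A at 24 h stood apart to a like degree, at 12.4 and 10.88 against Arg B and C, with 5.41 between those. At 24 h, control B lay on the Arg side of the mean of controls A and C for 18 of the 24 members tested, and at 48 h for 19 of 24. It lay outside the range of A and C as well for 17 and 15 of them. The sides of control B and of Arg were measured from the same mean of controls A and C. Error in that mean moves them the same way, so most genes can place control B on the Arg side with no effect. A library can also lie outside the range of its replicates through spread alone. The share of all genes placed in this way was not computed, so these counts do not show that control B stood apart. Leaving out control B at 48 h moved the calls over all genes from 0% higher and 0.117% lower to 7.76% and 8.17%. The place of control B is therefore not shown to be particular to the members. Results are therefore given with and without control B. Because control B was singled out for its place on the Arg side, leaving it out widens the differences by construction, so the values without it are descriptions and not further calls. The labels of these libraries were taken as given, and whether they are right was not tested. If they were wrong, the values with and without control B would differ in meaning from what is written here.

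Levels were compared between genes as TMM-normalized CPM per kb of the deposited exonic length, which adjusts for depth and for that length. The deposited length need not be that of the transcripts present, and it was 13201 bases for SERPINB6, 8891 for SERPINE2, and 1653 for KLK5. Ranks and shares per kb depend on it, since SERPINE2 averaged 48.1 CPM and KLK5 44.1 CPM before division by length. SERPINH1, the collagen chaperone HSP47 of the endoplasmic reticulum, had the highest mean over the 12 libraries, at 79.6 CPM per kb, and ranged from 70.2 to 92.0. SERPINB5, known as maspin and not an inhibitor of proteases in the classical sense, followed at 72.9 CPM per kb, with a range of 59.5 to 85.9 that overlapped that of SERPINH1. These 2 genes made up 32.8% and 30.0% of the summed level per kb of all members. KLK5 reached 26.7 CPM per kb (21.5 to 31.9). SERPINB13 (headpin), an inhibitor of lysosomal cathepsins, averaged 8.39 CPM per kb and KLK10 7.61. SERPINB7 averaged 6.13 CPM per kb and SERPINE2, the protease nexin-1 that blocks thrombin and urokinase, 5.41. The ranges of these 4 genes overlapped, and that of SERPINE2, from 1.22 to 15.6 CPM per kb, was the widest on a ratio scale. SERPINB8 (2.37 CPM per kb) and SERPINB6 (1.76 CPM per kb), intracellular inhibitors of furin-like and granule proteases, were also among the 10 highest.

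**Figure D1:**
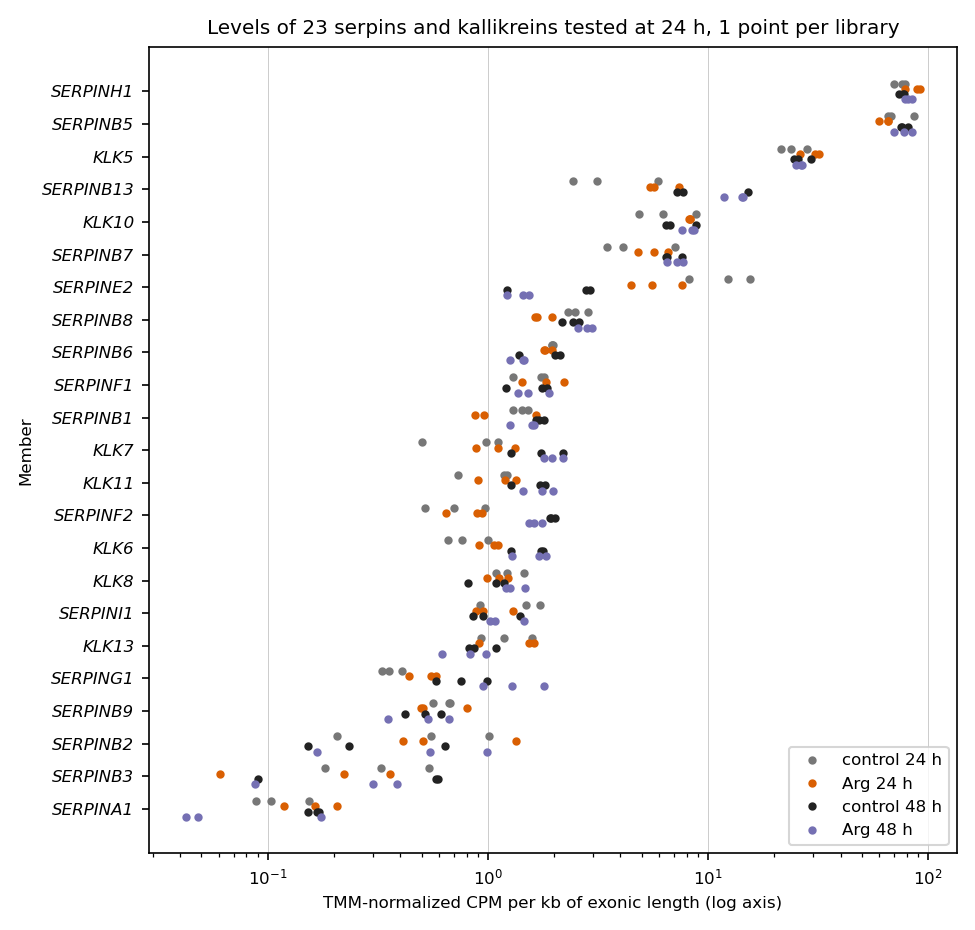
Levels of 23 members tested at 24 h, as TMM-normalized CPM per kb of exonic length on a log axis, with 1 point for each of the 12 libraries, colored by group. SERPINH1 and SERPINB5 sit near 80 and 73 CPM per kb, while the points of SERPINE2 spread from 1.22 to 15.6.

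Other secreted serpins had lower levels. SERPINF1, the anti-angiogenic factor PEDF, averaged 1.66 CPM per kb, and its neighbor SERPINF2, the plasmin inhibitor, 1.29. SERPING1, the C1 inhibitor of complement, averaged 0.752 CPM per kb, and SERPINA1, the elastase inhibitor alpha-1-antitrypsin, 0.133. The 9 SERPINA genes of chromosome 14, many of which encode plasma proteins made in the liver, included 7 without a count. The 11 members at 0 in all libraries were SERPINA3, SERPINA4, SERPINA6, SERPINA7, SERPINA9, SERPINA10, SERPINA11, SERPINA12, KLK2, KLK3, and KLK15. A count of 0 in a library allows up to 3 counts, or between 0.155 and 0.178 CPM, and this covers counting error only. KLK2 and KLK3 (PSA), known from prostate, are 85.3% identical over their coding sequence, so reads of these genes could not always be told apart. SERPINB3 and SERPINB4, the squamous cell carcinoma antigens, are 95.2% identical, and their 120 and 7 counts are uncertain for that reason. No other pair of serpins or kallikreins among the 666 compared was over 80% identical.

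The 15 kallikreins lie within 265 kb of chromosome 19, and KLK1 is at one end and KLK14 at the other. The level per kb varied along this row. KLK5 and KLK10 stood above the rest, KLK6 (1.26 CPM per kb), KLK7 (1.43), KLK8 (1.18), KLK11 (1.38), and KLK13 (1.08) formed a middle group, and KLK14 reached 0.273. KLK1, KLK4, KLK9, and KLK12 had between 1 and 34 counts over all libraries. KLK8 (478 counts) and KLK9 (9 counts) overlap AC011473.4 (182 counts) on the same strand, so their counts are uncertain. On chromosome 18, a row of 10 clade B serpins spans 543 kb, from SERPINB5 to SERPINB8. Genes with high and low counts lay side by side there: SERPINB12 (16 counts) lies between SERPINB5 and SERPINB13, and SERPINB4, SERPINB11, and SERPINB3 (7, 1, and 120 counts) lie between SERPINB13 and SERPINB7. SERPINB2, an inhibitor of urokinase, had 334 counts and overlaps SERPINB10, which had 16, on the same strand. The counts of both, and the tests of SERPINB2, are therefore uncertain.

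**Figure D2:**
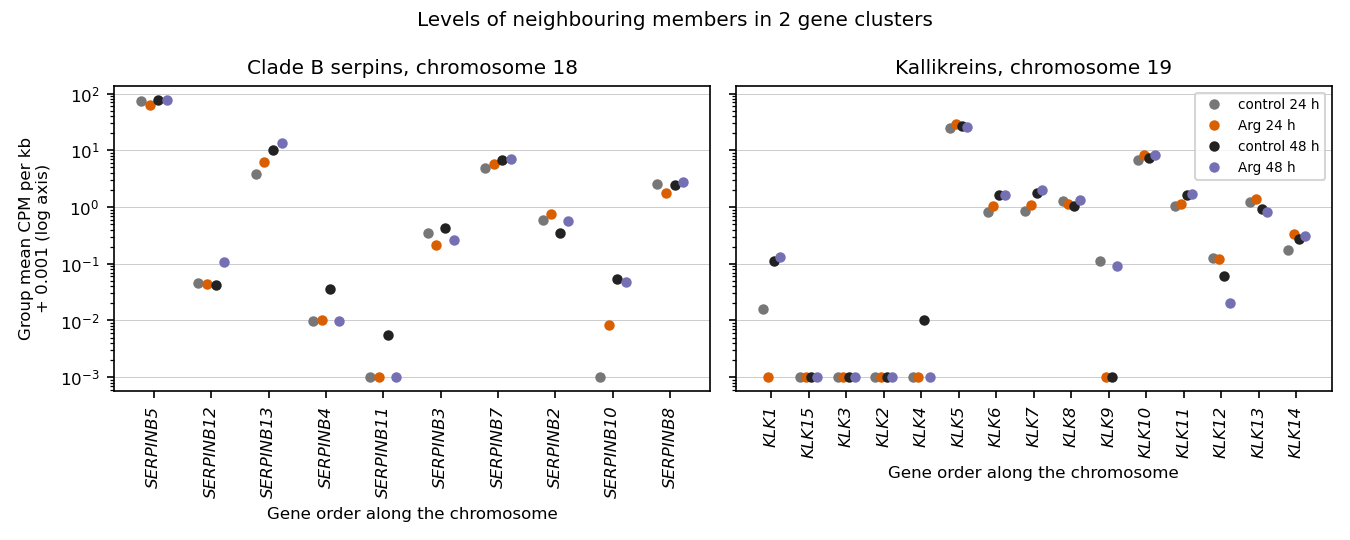
Group means of CPM per kb plus 0.001, on a log axis, for the clade B serpins of chromosome 18 and the kallikreins of chromosome 19 in gene order, with 1 point per group. SERPINB5, SERPINB13, SERPINB7, KLK5, and KLK10 stand above their nearest neighbors in gene order.

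The comparison of Arg with control at 24 h asked which of these genes changed when Arg was added at high glucose. After edgeR's filter on low counts, 24 members were tested, 17 serpins and 7 kallikreins. With edgeR's quasi-likelihood test and Benjamini-Hochberg adjustment over all 14279 genes tested, 0 members were higher and 2, SERPINE2 and SERPINB8, were lower with Arg once the adjusted p had to be under 0.05. In the whole table, 2.79% of genes were higher and 3.84% lower. At an unadjusted p under 0.05, 3 members were higher and 4 lower, against 10.8% and 11.9% of all genes. DESeq2 also gave 0 higher members after adjustment. The median log2 fold change was -0.07 for the serpins and 0.003 for all genes. It was 0.28 for the 7 kallikreins, of which 6 had a positive value and 0 passed the adjusted test.

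SERPINE2 and SERPINB2, which act on plasminogen activators, are given before the other members. SERPINE2 (ENSG00000135919) lies on the minus strand of chromosome 2 at chr2:223975112-224039319 in the deposited GRCh38 coordinates. It was at 110, 72.7, and 138 CPM in control A, B, and C at 24 h and at 68.0, 49.6, and 39.8 CPM in the Arg libraries. Every Arg library was below every control library, and control B was the nearest to them. This gave a log2 fold change of -1.02 ± 0.19 (SE, n = 3 per group, edgeR adjusted p = 0.0033), a level 0.492 times that of control. Without control B it was -1.24 (adjusted p = 1.37e-05), and the call held with any single library left out. SERPINB2 had a log2 fold change of 0.36 ± 0.51 (edgeR adjusted p = 0.721).

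Among the intracellular serpins, SERPINB8 (ENSG00000166401, chr18:63969925-64019779, plus strand) was at 14.5, 13.5, and 16.7 CPM in control and at 11.5, 9.85, and 9.56 CPM with Arg at 24 h. The groups did not overlap. Its log2 fold change was -0.53 ± 0.15 (edgeR adjusted p = 0.0383), and without control B it was -0.60 (adjusted p = 0.0199). The call did not hold without control A, control C, Arg B, or Arg C, where the adjusted p was 0.106, 0.169, 0.135, and 0.152. SERPINB8 overlaps HMSD on the same strand, so its counts are uncertain. HMSD had 662 counts against 3026 for SERPINB8, and its log2 fold change at 24 h had the opposite sign, at 0.46 ± 0.27 (edgeR adjusted p = 0.341).

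SERPINB13 (ENSG00000197641, chr18:63586989-63604639, plus strand) was at 11.0, 26.9, and 14.2 CPM in control A, B, and C and at 24.8, 25.7, and 33.3 CPM with Arg. Control B was within the Arg range, and controls A and C were below it. This gave a log2 fold change of 0.69 ± 0.22 (unadjusted p = 0.00592, edgeR adjusted p = 0.0698), and without control B it was 1.15 (adjusted p = 6.37e-05). For SERPINB7, control B, at 18.6 CPM, was above all Arg libraries (12.7 to 17.3 CPM), and controls A and C, at 10.8 and 9.14 CPM, were below them. Its log2 fold change was 0.23 ± 0.21 (edgeR adjusted p = 0.551), or 0.59 without control B (adjusted p = 0.0323). The summed level of 13 markers of differentiating keratinocytes followed a like order at 24 h. It was 854, 1429, and 1043 CPM in control A, B, and C and between 1136 and 1709 CPM with Arg. KRT13 had the most counts of these markers, and without it the controls summed to 280.3, 388.3, and 340.3 CPM. Among the controls, KRT1 and KRT10 were also highest in B. IVL (4.77, 2.60, and 4.31 CPM) and SPRR1B (46.6, 41.7, and 54.3 CPM) were instead lowest in B. The part of these markers in these results was not tested. SERPINB5 had a log2 fold change of -0.20 ± 0.09 (unadjusted p = 0.0485, edgeR adjusted p = 0.216). SERPINH1 was between 441 and 490 CPM in control and between 493 and 578 CPM with Arg. These groups did not overlap, but the log2 fold change of 0.21 ± 0.08 did not pass the adjusted test (edgeR adjusted p = 0.118). It passed without Arg A, at 0.28 (adjusted p = 0.0380). SERPINB6 was at -0.08 ± 0.10 (edgeR adjusted p = 0.710).

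Of the kallikreins, KLK5 had the highest counts and is known as an activator of other kallikreins (ENSG00000167754, chr19:50943303-50953093, minus strand). It was at 35.5, 46.6, and 39.3 CPM in control and at 50.8, 43.1, and 52.8 CPM with Arg at 24 h. The groups overlapped at control B and Arg B. The log2 fold change was 0.28 ± 0.11 (unadjusted p = 0.0241, edgeR adjusted p = 0.148), and without control B it was 0.39 (adjusted p = 0.0313). With any other single library left out, the adjusted p was between 0.138 and 0.474. KLK10 (ENSG00000129451, chr19:51012739-51020175, minus strand) was at 18.8, 33.9, and 24.2 CPM in control and between 31.5 and 31.9 CPM with Arg. Here control B exceeded all Arg libraries, and the log2 fold change was 0.31 ± 0.15 (edgeR adjusted p = 0.228), or 0.57 without control B (adjusted p = 0.00585). The summed level of all kallikreins was 78.4 ± 14.7 CPM (SD, n = 3) in control and 94.4 ± 3.99 CPM with Arg. The highest control library, at 94.8 CPM, lay within the Arg range of 90.0 to 97.8 CPM. That of all serpins was 1040 ± 96.6 CPM in control and 1003 ± 21.2 CPM with Arg.

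Without control B at 24 h, 4 members were higher (SERPINB13, KLK10, KLK5, and SERPINB7) and 3 lower (SERPINE2 and SERPINB8 among them) after adjustment. In that fit, 4.42% of all genes were higher and 6.02% lower. These counts are descriptions, since control B was singled out for its place on the Arg side.

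**Figure D3:**
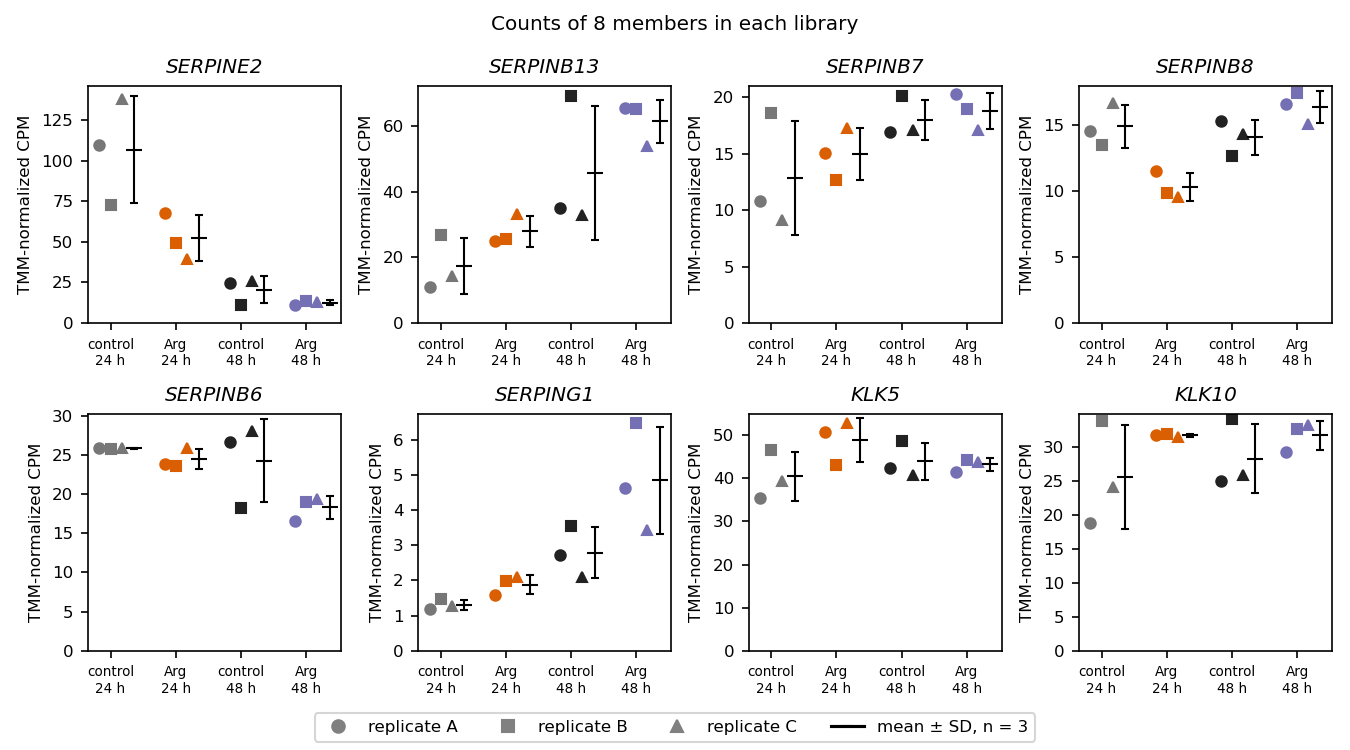
TMM-normalized CPM of 8 members in each library, with replicates A, B, and C as circles, squares, and triangles and the mean ± SD of each group (n = 3) in black. In control at both times, replicate B of SERPINE2 (72.7 and 10.9 CPM) and of SERPINB13 (26.9 and 69.1 CPM) sits nearer to the Arg libraries than replicates A and C do.

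At 48 h, 24 members were again tested. At an adjusted p under 0.05, 0 were higher and 0 lower with Arg, against 0% and 0.117% of all 14562 genes tested. At an unadjusted p under 0.05, 1 was higher (SERPING1) and 3 were lower (SERPINE2 and SERPINB6 among them), against 5.94% and 7.49% of all genes. DESeq2 gave 0 higher and 0 lower members after adjustment and 1 lower member before it.

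SERPINE2 was at 24.8, 10.9, and 25.9 CPM in control A, B, and C at 48 h and at 10.9, 13.7, and 12.9 CPM with Arg. Controls A and C were above every Arg library, and control B was level with the lowest Arg library. With all libraries, the log2 fold change was -0.72 ± 0.25 (edgeR adjusted p = 0.254), and without control B it was -1.02 (adjusted p = 2.73e-06).

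SERPINB6 was at 26.7, 18.2, and 28.0 CPM in control and at 16.6, 19.0, and 19.3 CPM with Arg at 48 h. Control B lay in the Arg range. With all libraries, the log2 fold change was -0.41 ± 0.15 (edgeR adjusted p = 0.272), or -0.58 without control B (adjusted p = 0.000623). SERPING1 was at 2.73, 3.55, and 2.09 CPM in control and at 4.63, 6.47, and 3.44 CPM with Arg. Its groups overlapped at control B and Arg C, and the log2 fold change was 0.79 ± 0.29 (edgeR adjusted p = 0.272), or 1.01 without control B (adjusted p = 0.0195). SERPINB13 was at 35.0, 69.1, and 32.8 CPM in control and at 65.3, 65.0, and 53.7 CPM with Arg. Control B had the highest value of all 6 libraries. The log2 fold change of 0.42 ± 0.22 (edgeR adjusted p = 0.431) became 0.86 without control B (adjusted p = 6.55e-07). The markers of differentiating keratinocytes again summed highest in control B, at 4640 CPM. The sums were 2116 and 1946 CPM in controls A and C and 3613 to 4370 CPM with Arg. Without KRT13, control B (1206 CPM) was above controls A and C (587.9 and 515.8 CPM) but below Arg A (1367 CPM). The part of these markers in the result was not tested.

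At 48 h, KLK5 had a log2 fold change of -0.03 ± 0.09 (edgeR adjusted p = 0.928). KLK10 was at 24.9, 34.1, and 25.8 CPM in control and at 29.3 to 33.2 CPM with Arg, and its log2 fold change was 0.16 ± 0.13 (edgeR adjusted p = 0.605), or 0.32 without control B (adjusted p = 0.0246). The median over the 7 kallikreins tested was 0.11, against 0.002 over all genes. Without control B at 48 h, 3 members were higher (SERPINB13, SERPING1, and KLK10) and 2 lower (SERPINE2 and SERPINB6) at an adjusted p under 0.05, and over all genes 7.76% were higher and 8.17% lower.

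**Figure D4:**
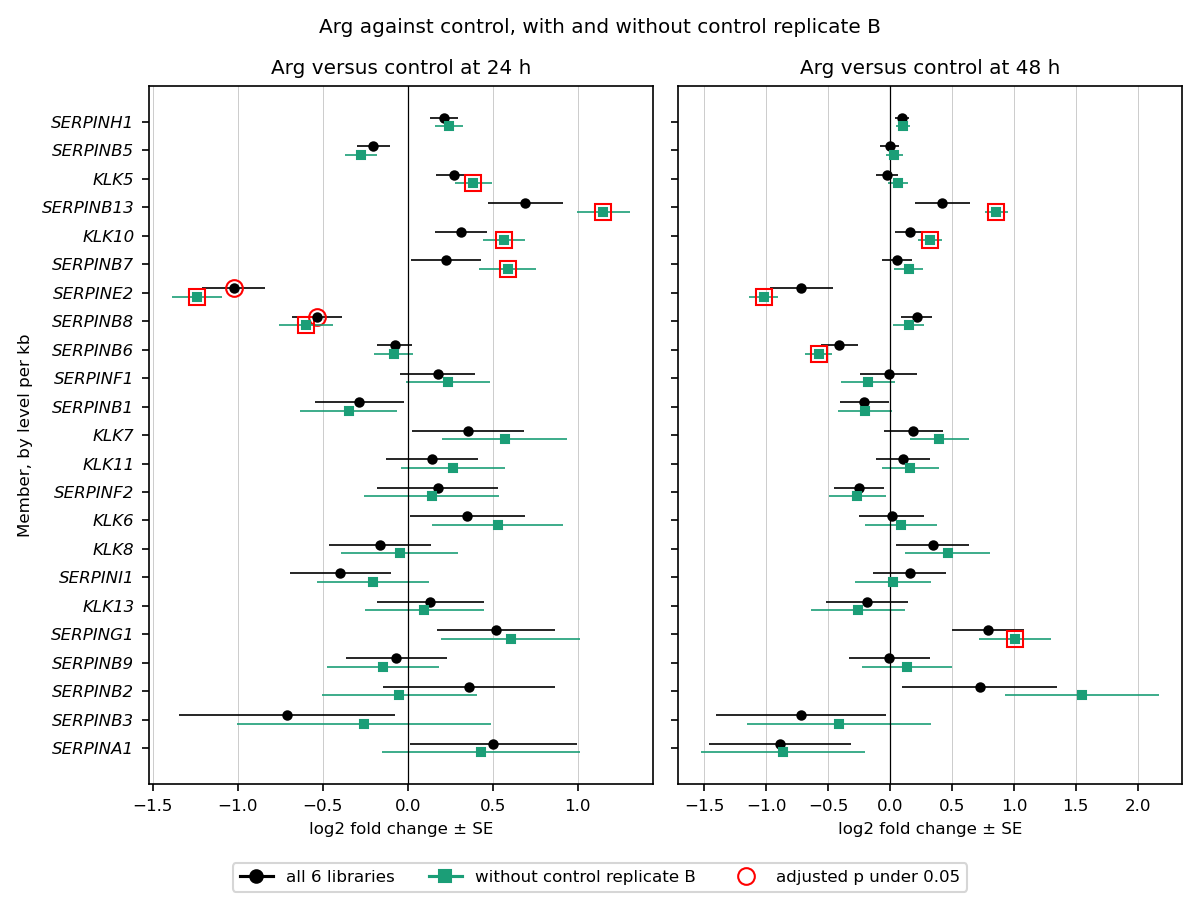
Log2 fold change of Arg against control ± SE at 24 h and 48 h for 23 members, ordered by level per kb, with all 6 libraries (circles) and without control replicate B (squares). Red outlines mark an adjusted p under 0.05, which SERPINE2 and SERPINB8 reached at 24 h and 0 members reached at 48 h with all libraries.

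The difference between the Arg effect at 48 h and that at 24 h was tested as an interaction for 25 members. At an adjusted p under 0.05, 0 members were higher and 0 lower, against 0.0132% and 0% of all 15148 genes. At an unadjusted p under 0.05, 1 was higher and 0 were lower, against 3.06% and 3.8%. The member was SERPINB8, whose level was below control at 24 h and not at 48 h. It was at 15.3, 12.7, and 14.3 CPM in control and at 16.6, 17.4, and 15.1 CPM with Arg at 48 h, where the groups overlapped at Arg C. The interaction was 0.75 ± 0.19 on the log2 scale, with an unadjusted p of 0.000724 and an edgeR adjusted p of 0.321. The HMSD interaction was -0.75 ± 0.36 (edgeR adjusted p = 0.726). For SERPINE2 the interaction was 0.31 ± 0.36 and for SERPINB13 -0.27 ± 0.36, so the Arg effects of these genes were not shown to differ between the times.

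Time in culture was compared within control, in medium made without arginine, and within Arg. The median absolute log2 fold change of the members tested was 0.38 in control and 0.42 in Arg, beside 0.24 and 0.23 for all genes, and it was 0.30 and 0.20 for Arg against control at 24 and 48 h, beside 0.17 and 0.14 for all genes. In control, 5 members were higher and 2 lower at 48 h than at 24 h at an adjusted p under 0.05, against 9.9% and 10% of all 14449 genes tested. In Arg, 6 of 23 members were higher and 3 lower, against 14.3% and 14% of all 14398 genes. The 2 comparisons have no library in common.

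SERPINE2 fell the most among the members. Its mean was 107 ± 32.8 CPM (SD, n = 3) in control at 24 h and 20.5 ± 8.38 CPM at 48 h, and 52.5 ± 14.4 and 12.5 ± 1.44 CPM with Arg. The groups did not overlap in either comparison. The log2 fold change was -2.37 ± 0.28 in control (edgeR adjusted p = 0.00104) and -2.07 ± 0.15 in Arg (adjusted p = 2.05e-08). Both calls held with any single library left out. SERPINB2 was at -0.77 ± 0.61 in control (edgeR adjusted p = 0.403), and without both B libraries, a choice made after seeing the data, its level at 48 h was 0.250 times that at 24 h (adjusted p = 0.00332).

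SERPINB13 rose from 17.4 ± 8.38 CPM to 45.6 ± 20.3 CPM in control and from 28.0 ± 4.67 CPM to 61.3 ± 6.57 CPM in Arg. These rises were 1.41 ± 0.32 on the log2 scale in control (edgeR adjusted p = 0.0118) and 1.14 ± 0.11 in Arg (adjusted p = 4.07e-07). In control the adjusted p was 0.0676 without control A and 0.0690 without control C at 24 h. The summed level of the differentiating keratinocyte markers was between 854 and 1709 CPM at 24 h and between 1946 and 4640 CPM at 48 h. Without KRT13 it was 280.3 to 397.5 CPM and 515.8 to 1367 CPM. Not every marker rose, since SPRR1B was at 41.7 to 56.4 CPM at 24 h and 28.0 to 38.7 CPM at 48 h. The part of these markers in these results was not tested. Other summed marker levels moved with time as well. The 8 fibroblast markers were at 32.9 to 57.7 CPM at 24 h and 75.1 to 103 CPM at 48 h. Most of these counts were of DCN (9738 over all libraries) and COL1A1 (3957). COL1A2, COL3A1, and PDGFRA had 2, 14, and 12 counts, so the sum does not stand for the whole set. The 4 endothelial markers were at 0.758 to 3.01 CPM and 4.07 to 6.39 CPM, with the most counts in KDR (540). In these bulk samples, a change in the share of cells of a kind and a change in RNA per cell cannot be told apart.

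Among the secreted serpins, SERPINF2 rose from 1.71 ± 0.53 to 4.59 ± 0.12 CPM in control and from 1.94 ± 0.37 to 3.85 ± 0.28 CPM in Arg. Its log2 fold change was 1.42 ± 0.28 (edgeR adjusted p = 0.00617) and 0.99 ± 0.27 (adjusted p = 0.00997). SERPINF1, its neighbor on chromosome 17, was at -0.002 ± 0.23 in control and -0.19 ± 0.22 in Arg. SERPING1 rose from 1.31 ± 0.14 to 2.79 ± 0.73 CPM in control, with a log2 fold change of 1.09 ± 0.32 (edgeR adjusted p = 0.0338), and by 1.36 ± 0.28 in Arg (adjusted p = 0.00125). The adjusted p of SERPING1 in control was 0.0718 without both B libraries.

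The kallikreins KLK6 and KLK7 rose with time in control. KLK7, the chymotrypsin-like enzyme of the cornified layer, was at 2.38, 2.71, and 1.22 CPM at 24 h and at 4.25, 5.36, and 3.11 CPM at 48 h. The log2 fold change was 1.01 ± 0.33 in control (edgeR adjusted p = 0.0478) and 0.85 ± 0.24 in Arg (adjusted p = 0.0129). KLK6 was at 0.99 ± 0.30 in control (edgeR adjusted p = 0.0371) and at 0.66 ± 0.29 in Arg (adjusted p = 0.0939). KLK11, between them in level, was at 0.64 ± 0.26 and 0.60 ± 0.23, with edgeR adjusted p-values of 0.106 and 0.0564. KLK5 and KLK10, the kallikreins with the highest levels, were at 0.13 ± 0.12 and 0.16 ± 0.19 in control and at -0.17 ± 0.09 and 0.003 ± 0.09 in Arg. In control, the calls of KLK6, KLK7, and SERPING1 did not hold without control A or C at 24 h or without control A or B at 48 h, where their edgeR adjusted p-values were between 0.0756 and 0.171. In Arg, KLK7 had an adjusted p of 0.0534 without Arg B at 24 h and 0.0546 without Arg C at 48 h.

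Of the other clade B serpins, SERPINB8 rose by 0.67 ± 0.13 with time in Arg (edgeR adjusted p = 0.000857) and was at -0.07 ± 0.14 in control (adjusted p = 0.747). SERPINB5 rose by 0.29 ± 0.07 in Arg (edgeR adjusted p = 0.00666, or 0.0592 without Arg A at 48 h). SERPINB6 fell by 0.42 on the log2 scale in Arg (edgeR adjusted p = 0.0068) and was at -0.08 ± 0.15 in control (adjusted p = 0.735). The differences between the time effects of control and Arg are the interactions given above, of which 0 passed the adjusted test. Without both control B libraries, 5 members were higher and 3 lower at 48 h in control, against 15% and 16.4% of all genes.

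**Figure D5:**
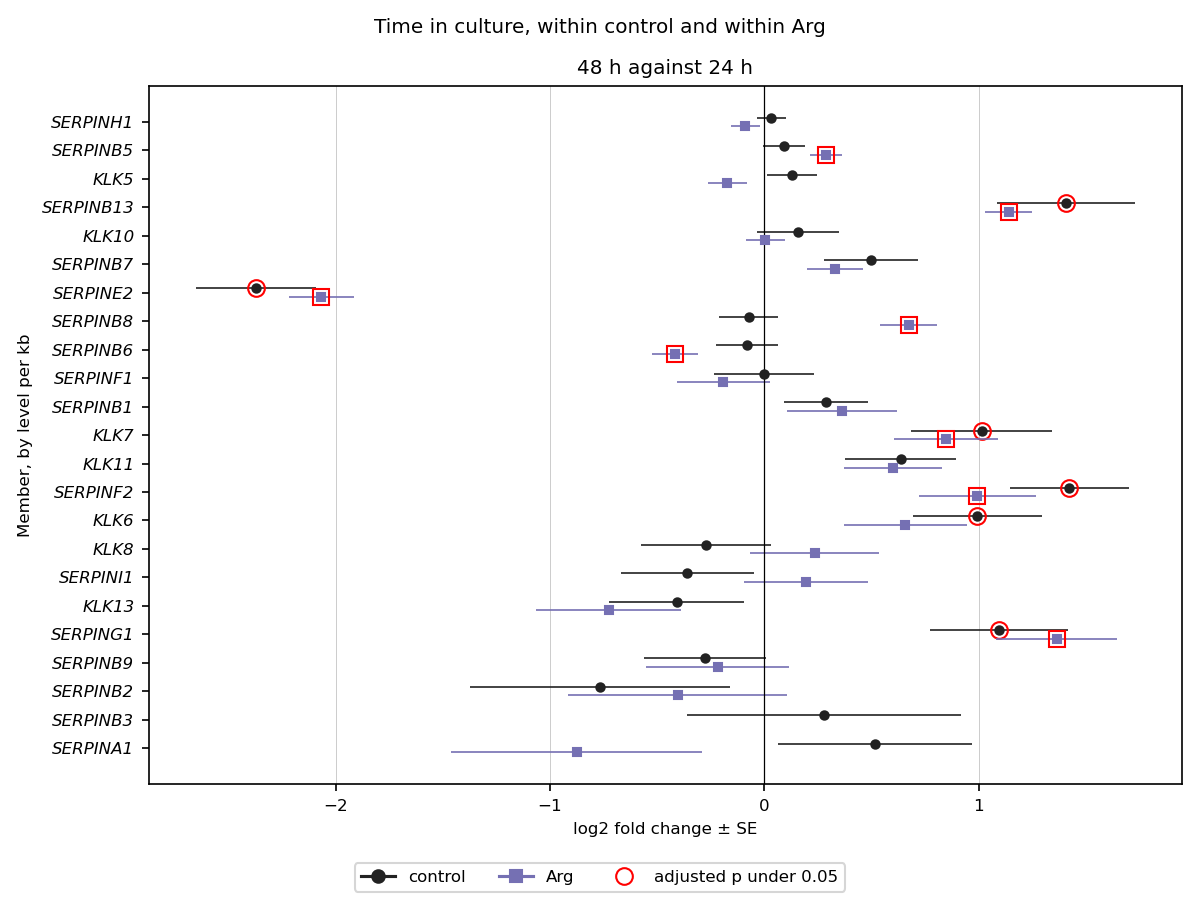
Log2 fold change of 48 h against 24 h ± SE within control (circles) and within Arg (squares) for members tested, ordered by level per kb, with red outlines at an adjusted p under 0.05. SERPINE2 lies below 0 and SERPINB13, SERPINF2, SERPING1, and KLK7 lie above 0 in both groups.

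Serpins and kallikreins act beside other proteases, inhibitors, and receptors, and a list of 72 such genes that are not members was examined, of which 41 were tested at 24 h. The list was chosen with earlier results of these data known, so its counts are descriptions and its excess over all genes is not support. With Arg at 24 h, 0 of the 41 were higher and 7 lower at an adjusted p under 0.05, against 2.79% and 3.84% of all genes. The 7 were 2 of 14 proteases, 1 of 3 proteases that clade B serpins bind, 2 of 13 other inhibitors, and 2 of 9 receptors and cofactors. The median log2 fold change of the list was -0.08. TFPI2, a Kunitz inhibitor of plasmin and other matrix-associated proteases, was at 139 ± 60.2 CPM in control and 29.7 ± 7.20 CPM with Arg, a log2 fold change of -2.22 ± 0.24 (edgeR adjusted p = 2.45e-05). THBD, the thrombin receptor thrombomodulin, was at 78.7 ± 12.2 and 41.2 ± 0.945 CPM, a log2 fold change of -0.93 ± 0.11 (adjusted p = 4.43e-05). CTSB, the lysosomal protease cathepsin B, was lower by a log2 fold change of -0.51 ± 0.09 (edgeR adjusted p = 0.00261). These 3 calls held with any single library left out. The other 4 were SPINK6, an inhibitor of kallikreins, at -1.78 ± 0.50, PRSS3 at -0.82 ± 0.20, PROCR, the receptor of protein C, at -0.48 ± 0.13, and HTRA1 at -0.44 ± 0.10. Their edgeR adjusted p-values were 0.0394, 0.0202, 0.0306, and 0.0125. With each library left out in turn, SPINK6, PRSS3, PROCR, and HTRA1 stayed under 0.05 in 3, 2, 2, and 3 of the 6 fits, and the highest adjusted p-values were 0.26, 0.126, 0.147, and 0.0701. PRSS3 belongs to the trypsinogen family of near-identical copies, so its counts are uncertain.

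At 48 h, 0 of the 41 companion genes tested were higher and 0 lower at an adjusted p under 0.05, against 0% and 0.117% of all genes, with 0 higher and 5 lower at an unadjusted p under 0.05, against 5.94% and 7.49%. DESeq2 gave 0 higher and 0 lower there after adjustment, and at 24 h it gave 2 higher and 8 lower, against 494 and 645 of all 14279 genes. The plasminogen activator PLAU, a target of SERPINE2 chosen here after its values were seen, was at 0.02 ± 0.11 at 24 h and -0.03 ± 0.12 at 48 h. Its receptor PLAUR, chosen likewise, was at -0.55 ± 0.23 (edgeR adjusted p = 0.156) and -0.77 ± 0.24 (adjusted p = 0.219). With time, 7 of the 41 companion genes tested were higher and 6 lower in control, against 9.9% and 10% of all genes, and 15 of 41 were higher and 6 lower in Arg, against 14.3% and 14%. Of the kallikrein substrates, also chosen after their values were seen, DSG1, the desmosomal cadherin desmoglein-1, rose by 1.45 ± 0.39 in control (edgeR adjusted p = 0.0229) and by 1.48 ± 0.19 in Arg (adjusted p = 1.22e-05). DSC1 was tested in Arg, where it rose by 1.89 ± 0.51 (edgeR adjusted p = 0.00831). FLG, the filament-aggregating protein filaggrin, was at 0.47 ± 0.46 in control (edgeR adjusted p = 0.508) and 0.29 ± 0.43 in Arg (adjusted p = 0.67), and CDSN did not pass the filter.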

How the data were processed

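RNA sequencing counts of TIGK cells at 48 mM glucose with 500 μM or no added Arg were used, with 3 libraries per group at 24 and 48 h. The authors filtered reads with fastp, mapped them to GRCh38/hg38 with STAR, counted them per gene with featureCounts, and deposited raw counts, with no normalization. Annotation release, strand setting, and tool versions are not given in the sources used here, so overlapping genes are reported as uncertain. The totals per library were 16542243 to 19040964 counts.

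The libraries were grouped by their labels. Each comparison of 2 groups was fitted on its 6 libraries with edgeR 4.0.16 in R 4.3.3 (filterByExpr, TMM factors, glmQLFit, and glmQLFTest), and the interaction on all 12. Adjustment followed Benjamini and Hochberg, over every gene tested. An exact permutation test of 3 libraries against 3 cannot give a p below 0.1. The scripts were tested on simulated data. Named members passed an adjusted p under 0.05 in any comparison or an unadjusted p under 0.05 with Arg, were among the 10 highest per kb, or were needed to account for a subfamily. Named companion genes passed an adjusted p under 0.05 with Arg, except PLAU, PLAUR, and the kallikrein substrates, which were chosen after seeing their values. The values of 1 member are not reported here, although it is counted. The members and lists were chosen with earlier results of these data known. Coding identity was computed from GENCODE v44 canonical transcripts, and promoters came from RefSeq (GRCh38.p14).

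The alternatives were library size only, edgeR with the size factors of DESeq2, DESeq2 1.42.0 itself, no filter, at least 10 counts in every library, a single model of all 12 libraries, the replicate block, and each library left out. Leaving out both control B libraries was chosen after seeing the data.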

Additional observations from a re-analysis of the deposited data

Results flagged for a closer look

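The Arg effect on SERPINB8 differed between 24 h and 48 h by the test of that difference before adjustment. The interaction was 0.75 on the log2 scale (SE 0.19, unadjusted p = 0.000724), from a log2 fold change of -0.53 at 24 h to 0.22 at 48 h. After adjustment over all 15148 genes it did not pass (edgeR adjusted p = 0.321), and its adjusted p was between 0.0673 and 0.707 over all alternatives. The interaction kept its direction in all 13 fits that left out libraries, between 0.66 and 0.83. The result was picked from 25 members tested, and the overlap with HMSD, whose interaction was -0.75 (SE 0.36), limits it.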

How the results depend on the processing

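At 24 h, the count of higher members at an adjusted p under 0.05 was 0, and it was 1 with no filter on low counts, 1 with the replicate block, and 0 to 4 with each library left out. The count of lower members was 1 to 3 with each library left out, and that of higher members at an unadjusted p under 0.05 was 1 to 5. At 48 h, no filter gave 1 higher and 1 lower member at an adjusted p under 0.05, and leaving out libraries gave 0 to 3 and 0 to 2. At an unadjusted p under 0.05, the count of higher members at 48 h was 2 with no filter, 2 with the replicate block, and 0 to 4 with libraries left out, and that of lower members was 1 with DESeq2 and 0 to 3 with libraries left out. For the interaction at an unadjusted p under 0.05, no filter gave 4 higher and 1 lower member, leaving out both control B libraries gave 3 and 3, and leaving out each library gave 1 to 3 higher and 0 to 4 lower. With time in control, 1 to 6 members were higher with libraries left out. The causes were not tested. Of the values of named genes, 608 kept their direction and their side of the threshold, 27 passed it newly, 38 no longer passed it, and 4 changed sign. These 4 were Arg effects at 48 h near 0 with a library left out, where the log2 fold change ranged from -0.0759 to 0.0628 for SERPINB5 (0.0356 without control B and 0.0628 without Arg C), from -0.0811 to 0.0604 for KLK5 (0.0604 without control B), and from -0.00398 to 0.15 for SERPINB7 (-0.00398 without Arg A). The letters A, B, and C were not treated as pairs in the main fits. Same-letter deviations correlated between -0.0615 and 0.135, the highest being that of control B between the times. Such low values cannot show that same-letter libraries had no batch in common. With the replicate block at 48 h, the calls over all genes went from 0 higher and 17 lower to 43 and 141. With the replicate block at 24 h, SERPINB13 had an adjusted p of 0.0118. Depth limits the members with few counts, since a count of 0 allows up to 0.155 to 0.178 CPM in a library.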
